A study of Mus musculus with 12 samples.

Results

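The genes described here encode proteins of the lysosome, taken as a set of 38 gene symbols out of the 55487 genes in the series' expression table. They are listed by symbol, with no threshold on a measured value, although the list was drawn up with earlier results of these data known, and all 38 were found. The set holds 9 cathepsins, 2 other proteases (Lgmn and Tpp1), 6 glycosidases, 2 lysozymes, 7 lipid enzymes and carriers, 7 membrane proteins, 2 subunits of the proton pump, progranulin (Grn), and the transcriptional regulators Tfeb and Tfe3. The cells were mouse Ly6C+ monocytes (classical monocytes carry the surface protein Ly6C), and bulk RNA was sequenced from 3 libraries in each of 4 groups. The WT group came from fetal liver with the genotype label WT, at embryonic day E13.5 for WT 1 and E15.5 for WT 2 and WT 3. The Mixed group came from fetal liver at E15.5, also labelled WT, and no source used here says what "Mixed" refers to. The KO group came from fetal liver at E13.5 and its genotype label is KO, with the allele not given. A mouse line named Z165KO and tissue macrophages appear in the series' design text, while the sample labels name neither. The BM group came from bone marrow, with the genotype label WT and no age. The series title names cMaf and Zeb2. Total counts per library were 17384956 to 24473502. Levels are counts per 1e+06 counts (CPM) on library sizes scaled by the TMM method, and levels are compared between genes only in the authors' deposited TPM values, which account for length. A gene is called higher or lower where edgeR's quasi-likelihood test gave a Benjamini-Hochberg adjusted p under 0.05 over all 14618 genes tested, and differences between groups are log2 fold changes ± SE unless a fold is named. Of the set, 37 genes passed the filter on low counts and were tested. The exception was Ctsk, the cathepsin of bone-resorbing osteoclasts, which lay between 0 and 0.368 CPM in the 12 libraries.

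Lysosomes are acidic compartments in which proteins, glycans, lipids and nucleic acids taken up by a cell or made within it are broken down. A proton pump in their membrane keeps the pH low, soluble hydrolases do the cleavage, and membrane proteins line the compartment and carry products out. Tfeb and Tfe3 are transcription factors that bind a short DNA element found in the promoters of many lysosome genes, and their entry into the nucleus is held back by mTORC1 kinase on the lysosome surface. Monocytes and the cells derived from them are rich in lysosomes, which they use to digest ingested material and to process antigen.

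The libraries were checked against their labels first. Zeb2 stood at 23.8, 20.1 and 22.5 CPM in the KO libraries and at 141, 143 and 165 CPM in WT, a 6.75-fold lower level in KO, and it was 159 to 179 CPM in Mixed and 311 to 338 CPM in BM. Maf was not called between KO and WT (log2 fold change -0.45, edgeR adjusted p = 0.0549), with 7.94 to 12.7 CPM in KO and 12.1 to 14.9 CPM in WT. The defining markers of classical monocytes were present in every group. Their summed level over 10 genes, which include the lysosome genes Cd68 and Lyz2, was 10970 to 12410 CPM in WT, 14570 to 14650 in Mixed, 7738 to 8805 in KO and 35300 to 36010 in BM. Lyz2 alone gave a large part of these sums, with 5715 to 6845 CPM in WT, 8002 to 8193 in Mixed, 3948 to 4561 in KO and 21649 to 22075 in BM. Of the 10 genes, 8 were higher and 2 lower in BM than in WT, and 3 were higher and 6 lower in KO than in WT. Markers of other cells also moved with the groups. Of 7 dendritic cell markers tested, 6 were higher and 1 lower in KO than in WT, with a summed level of 21.5 to 26.7 CPM in WT, 25.9 to 29.9 in Mixed, 184 to 192 in KO and 89 to 97.9 in BM. The summed neutrophil list of 11 genes, which holds granule genes that early myeloid cells also express, was 10060 to 12550 CPM in WT, 8942 to 9147 in Mixed, 13030 to 15800 in KO and 2037 to 2324 in BM. The fall of this sum in BM was not shared by all 11 genes. In BM 2 were higher and 7 lower than in WT (median -2.33), and 4 were higher and 4 lower than in Mixed (median -0.34). Macrophage markers, 10 genes, summed to 215 to 289 CPM in WT, 263 to 272 in Mixed, 209 to 246 in KO and 322 to 333 in BM, where Marco was at 0. The BM sum was carried by Adgre1, at 308 to 321 CPM, while 2 of the 10 macrophage markers were higher and 7 lower in BM than in WT, with a median of -3.54. B cell markers, 6 genes, summed to 136 to 163 CPM in WT, where Pax5 was at 0, 160 to 187 in Mixed, 420 to 506 in KO and 950 to 1089 in BM. The KO sum did not reflect the list as a whole, as 2 of 5 tested were higher and 1 lower than in WT (median 0.02). In BM 4 were higher and 1 lower than in WT (median 2.99). Erythroid markers, 6 genes, summed to 714 to 1356 CPM in WT, 582 to 1168 in Mixed, 451 to 1010 in KO and 3.52 to 15.9 in BM. Hepatocyte markers, 5 genes, summed to 8.4 to 61 CPM in WT, 4.47 to 6.04 in Mixed, 15.6 to 76.5 in KO and 0 to 0.385 in BM, where Alb, Apoa1 and Serpina1a were at 0. The part of these other cells in the differences below was not tested, and in bulk RNA a smaller number of cells of a type and less RNA per cell cannot be told apart. Embryonic day differed between KO and WT 2 and WT 3, between KO and all of Mixed, and between WT 1 and Mixed, and tissue and age cannot be told apart in BM.

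The promoters of the set were read because its regulators bind the element CACGTG, the core of the motif described for lysosome genes. A RefSeq table of promoters on GRCm38.p6 (250 bases before to 50 after each start) held 34 of the 38 genes, with 40 promoters. CACGTG, which reads the same on both strands, lay in the promoter of 11 of these 34 genes (32.4%), against 8.09% of the 27025 genes in the table. Its extension TCACGTGA, also the same on both strands and always containing CACGTG, lay in 6 of 34 (17.6%: Atp6v0d1, Atp6v1a, Ctsa, Ctsd, Gla and Mcoln1), against 1.12% of all genes. The other 5 genes with CACGTG were Ctsl, Gaa, Glb1, Lamp1 and Lgmn. The 5 windows below run from 150 bases before to 25 after the start, with CACGTG in capitals. They were picked because the calls of their genes differed, so that difference is not a result about the element. All 5 hold CACGTG, while the Lamp1 promoter lacks the extension TCACGTGA. The Ctsd promoter holds 2 copies of CACGTG and its window 1. Ctsd and Atp6v0d1 were higher in KO than in WT, Ctsa and Mcoln1 lower, and Lamp1, with 4 copies in its promoter, was not called. Of these, the Ctsd call held in all 19 alternatives, which are other tools, scalings, filters and model terms or the omission of a library. The Atp6v0d1 call was lost in 6, and Lamp1 was called lower in 1. Ctsa and Mcoln1 each lost the call in 1, with embryonic day as a term, which sets KO against WT 1 alone (-0.20 and -0.44).
Ctsd, chr7:142387803-142387977, - strand: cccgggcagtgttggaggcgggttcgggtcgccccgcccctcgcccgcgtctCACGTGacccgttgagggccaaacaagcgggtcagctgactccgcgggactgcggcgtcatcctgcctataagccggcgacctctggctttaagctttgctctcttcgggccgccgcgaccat
Atp6v0d1, chr8:105566040-105566214, - strand: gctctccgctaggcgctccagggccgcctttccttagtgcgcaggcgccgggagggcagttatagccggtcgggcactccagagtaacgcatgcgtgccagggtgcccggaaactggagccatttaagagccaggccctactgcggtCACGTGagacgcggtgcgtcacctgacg
Ctsa, chr2:164833623-164833797, + strand: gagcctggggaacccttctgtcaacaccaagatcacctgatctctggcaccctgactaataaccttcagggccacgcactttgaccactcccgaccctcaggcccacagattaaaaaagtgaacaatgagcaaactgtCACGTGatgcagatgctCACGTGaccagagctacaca
Mcoln1, chr8:3500369-3500543, + strand: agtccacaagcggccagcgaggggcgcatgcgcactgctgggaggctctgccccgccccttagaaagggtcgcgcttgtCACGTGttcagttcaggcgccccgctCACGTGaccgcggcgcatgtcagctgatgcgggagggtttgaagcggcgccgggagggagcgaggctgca
Lamp1, chr8:13159011-13159185, + strand: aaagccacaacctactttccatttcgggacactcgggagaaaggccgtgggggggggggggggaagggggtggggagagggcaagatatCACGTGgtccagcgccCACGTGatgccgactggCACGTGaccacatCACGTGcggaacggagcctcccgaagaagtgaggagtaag

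Between BM and Mixed the same 5 genes split another way, with Ctsd lower, Ctsa, Mcoln1 and Lamp1 higher, and Atp6v0d1 not called. The Lamp1 call was lost in 10 of 18 alternatives (highest adjusted p 0.313), and Atp6v0d1 was called lower in 5 of 18 (lowest adjusted p 0.0206). Over the 11 genes with CACGTG, 4 were higher and 4 lower in KO than in WT, and 3 were not called. Over the 23 without it, 10 were higher, 4 were lower, 8 were not called and Ctsk was not tested. Over all genes tested 18.2% were higher and 19.9% lower. The BM minus Mixed difference had 5 higher and 3 lower of the 11, and 17 higher and 4 lower of the 23, against 29.5% higher and 28.9% lower over all genes. These are counts of letters in a window, and no binding was measured.

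Bone marrow was the group with the most lysosome RNA. The 38 genes together took 4.30% to 4.44% of all counts in the BM libraries, 2.61% to 2.65% in Mixed, 2.15% to 2.36% in WT and 2.32% to 2.44% in KO. Lyz2 alone made up a large part of this, with 2.16% to 2.17% of counts in BM, 0.818% to 0.835% in Mixed, 0.589% to 0.696% in WT and 0.382% to 0.431% in KO. Without Lyz2 the summed level was 15138 to 16316 CPM in WT, 17369 to 17959 in Mixed, 19923 to 21297 in KO and 21421 to 23220 in BM, so that the 4 groups did not overlap and the gap between BM and KO was narrow. By mean level, 25 of the 37 tested genes were highest in BM, 8 in KO, 3 in Mixed and 1 in WT (Cd63). The mean was lowest in WT for 17 genes, in KO for 11, in BM for 7 and in Mixed for 2. The genes that varied most between groups were Cd63, 19.3-fold between its highest and lowest group mean, Lyz1 (6.94-fold), Ctsl (5.32-fold) and Lyz2 (5.12-fold). Those that varied least were Scarb2, Atp6v1a and Atp6v0d1, each 1.14-fold.

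**Figure D1:**
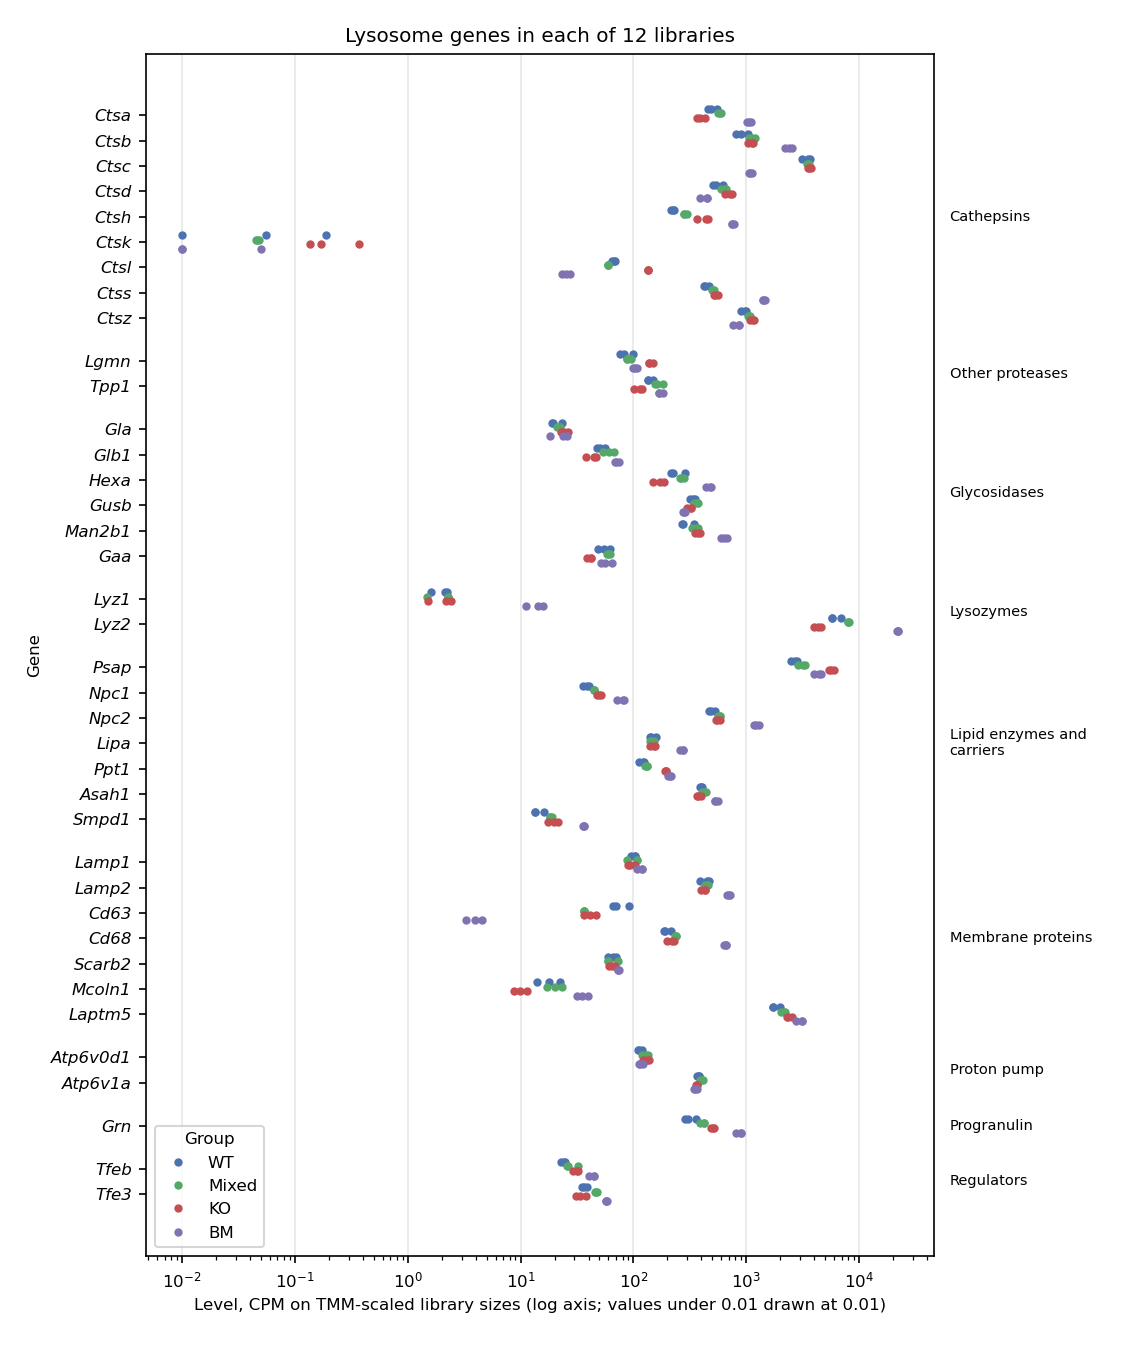
Level of each of the 38 genes in each of the 12 libraries, in CPM on a logarithmic axis, with genes grouped by class and 1 point per library (blue WT, green Mixed, red KO, purple BM). The BM points lie to the right of the others for most genes and far to the left for Cd63 (3.3 to 4.51 CPM), while Ctsl and Psap in KO lie apart from WT and Mixed.

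In KO against WT, 17 of the 37 tested genes were higher and 8 lower. The background over all genes tested was 18.2% higher, 19.9% lower and 38.1% called in either direction. The median log2 fold change was 0.13 over the 37 genes and -0.03 over all genes. The largest rises were in Psap, Ctsl and Ctsh, and the largest falls in Cd63, Mcoln1 and Hexa. Only Psap and Ctsl were called at 2-fold or more, as 10.2% of all genes were. The libraries of KO and WT did not overlap for 25 of the 37 genes, against 47.4% of all genes. Beside these counts stand the marker values above: 6 of 7 dendritic cell markers were higher in KO, 6 of 10 classical monocyte markers were lower and 3 higher, and 5 of 11 neutrophil markers were higher and 2 lower. The monocyte list shares Lyz2, lower in KO, and Cd68, not called, with the set, so those 2 genes stand on both sides. The lower calls changed when embryonic day was taken into account. With day as a term over the 9 fetal liver libraries, which sets KO against WT 1 alone, 16 genes stayed past the threshold as higher and 2 as lower (Cd63 and Lyz2). With the deposited TPM in place of scaled counts, the median over all genes shifted to -0.12, 10 of the set were higher and 12 lower, and the share of higher among all called genes went from 47.7% to 29.2%.

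In Mixed against WT, 13 of 37 were higher and 1 lower, against a background of 4.21% higher, 3.87% lower and 8.07% in either direction. The median was 0.16 for the set and -0.01 for all genes. The rises were small, at most 1.32-fold (Lyz2), and the fall was in Cd63, which was also the single gene of the set called at 2-fold or more (0.451% of all genes were). The libraries did not overlap for 21 of the 37, against 27% of all genes. This count rested on single libraries: higher calls numbered 3 without WT 2, 4 without WT 1, and 6 without Mixed 1 or without Mixed 3, while they rose to 17 without WT 3. Leaving out WT 1 leaves both groups at E15.5, and Ctsh, Lyz2, Grn and Tfe3 were then the 4 higher genes and Cd63 the lower one.

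In BM against WT, 26 of 37 were higher and 6 lower, and against Mixed 26 were higher and 7 lower. The backgrounds were 32.1% higher, 31.9% lower and 64% in either direction against WT, and 29.5%, 28.9% and 58.4% against Mixed. The medians were 0.70 against WT (0.00 over all genes) and 0.48 against Mixed (0.01 over all genes). Both comparisons share the BM libraries. The groups did not overlap for 33 of 37 genes against WT (68.1% of all genes) and for 31 against Mixed (64.2%). Changes of 2-fold or more were called for 15 genes against WT (24.7% of all genes) and for 11 against Mixed (19.6%). In KO against Mixed, 6 were higher and 11 lower, with a background of 18.2% higher, 18.5% lower and 36.7% in either direction, and a median of 0.02 against -0.02 over all genes. The libraries did not overlap for 25 of the 38 genes, among them the untested Ctsk, against 48.3% of all genes tested. Ctsl was the 1 gene called at 2-fold or more (10% of all genes). All KO libraries were from E13.5 and all Mixed libraries from E15.5. With day as a term, whose effect is then set by the difference of WT 1 from WT 2 and WT 3, the lower calls dropped from 11 to 4.

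**Figure D2:**
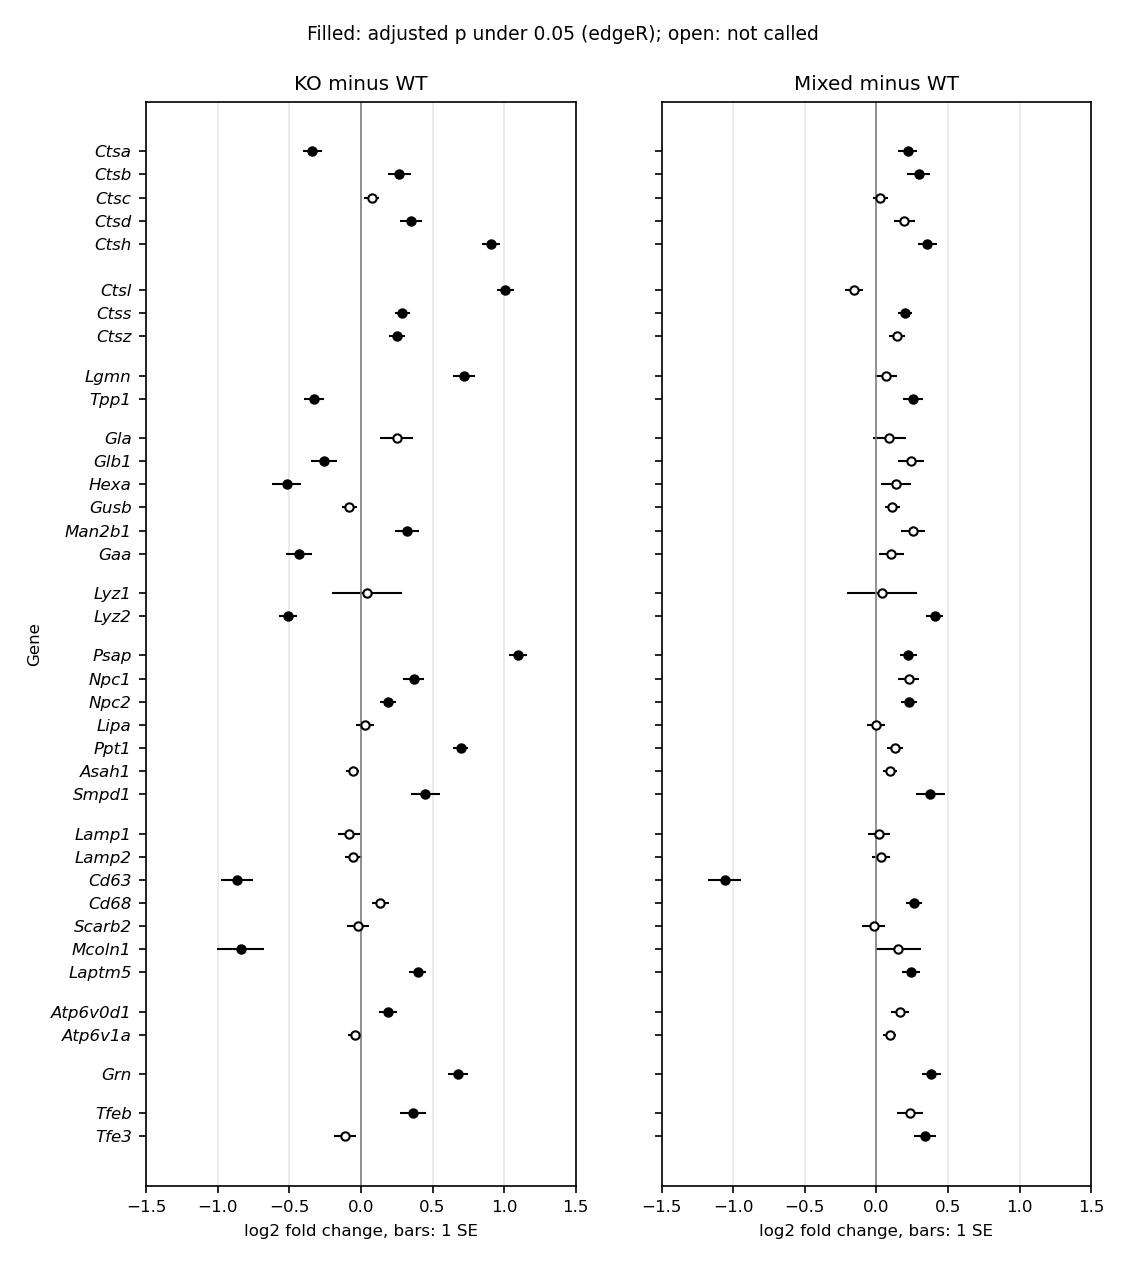
Log2 fold change of the 37 tested genes in KO minus WT (left) and Mixed minus WT (right), with bars of 1 SE, filled points for an adjusted p under 0.05 and open points for genes not called. KO points run from -0.87 (Cd63) to 1.10 (Psap), and in Mixed every called gene but Cd63 lies between 0.20 and 0.41.

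Cathepsins are the main proteases of the lysosome. Of the 8 tested, 6 were higher and 1 lower in KO than in WT, 4 were higher in Mixed, and 4 were higher and 4 lower in BM. The shares of all genes tested were 18.2% higher and 19.9% lower in KO. They were 4.21% higher in Mixed, and 32.1% higher and 31.9% lower in BM. Ctsl (chr13:64359337-64370890, GRCm38), an endopeptidase, stood at 64.7, 69.1 and 66.6 CPM in WT, 59.8, 60.1 and 59.7 in Mixed, 135, 135 and 134 in KO, and 27.2, 25.1 and 23.5 in BM. All 3 KO libraries were above every other library, the KO mean being 2.01-fold the WT mean, and all 3 BM libraries were below every fetal liver library. The log2 fold change was 1.01 ± 0.06 in KO against WT (edgeR adjusted p = 1.54e-11), 1.17 ± 0.06 in KO against Mixed, and -1.40 ± 0.07 in BM against WT. Ctsh, an aminopeptidase, stood at 225, 215 and 230 CPM in WT, 297, 279 and 280 in Mixed, 362, 439 and 456 in KO, and 748, 782 and 754 in BM. Its 4 groups did not overlap and ran from WT through Mixed and KO to BM. The difference was 0.91 ± 0.07 for KO, 0.35 ± 0.07 for Mixed and 1.77 ± 0.07 for BM, each against WT. Ctsl and Ctsh thus both rose in KO, while in BM the first was lower and the second higher.

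Ctsc (chr7:88278085-88310888), the dipeptidyl peptidase that activates serine proteases of myeloid granules, was even across fetal liver and low in bone marrow. It stood at 3532, 3702 and 3132 CPM in WT, 3476, 3505 and 3570 in Mixed, 3573, 3779 and 3553 in KO, and 1080, 1117 and 1062 in BM. It was not called in KO (0.07 ± 0.05) or in Mixed (0.03 ± 0.05) against WT, and was 3.18-fold lower in BM. Ctss, which trims the invariant chain of MHC class II, and Ctsb were higher in BM by 1.70 ± 0.05 and 1.38 ± 0.08, and their changes in KO were 0.29 ± 0.05 and 0.27 ± 0.08. The libraries of KO and WT touched for Ctsb, with 1039 to 1139 CPM in KO and 804 to 1040 in WT. The KO call was lost in 5 of 19 alternatives for Ctsb and in 1 for Ctsz, and held in all for Ctss. The higher calls in Mixed against WT were lost in 9 of 19 for Ctsa, 8 for Ctsb and 5 for Ctss, and in 0 for Ctsh. Ctsd, an aspartic protease, and Ctsz, a carboxypeptidase, were higher in KO by 0.35 ± 0.07 and 0.25 ± 0.05 and lower in BM by -0.36 ± 0.08 and -0.20 ± 0.05. Ctsa, a serine carboxypeptidase that also protects lysosomal galactosidase and sialidase, was the cathepsin that fell in KO, with 366, 386 and 428 CPM against 459, 483 and 552 in WT. Its fall of -0.34 ± 0.07 became -0.20 and was not called with day as a term (edgeR adjusted p = 0.0973). In BM, at 1010, 1110 and 1050 CPM, Ctsa was 2.12-fold higher than in WT.

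The summed level of the 9 cathepsins changed little beside these shifts: 6897 to 7300 CPM in WT, 7591 to 7837 in Mixed, 7731 to 8301 in KO and 7643 to 8368 in BM. Their make-up by TPM differed most in bone marrow. Ctsc accounted for 36.6% to 42.4% of summed cathepsin TPM in WT, 37.6% to 38.7% in Mixed and 36.1% to 38.4% in KO, and for 10.1% to 10.3% in BM. Ctss and Ctsb held larger shares there, with Ctss at 24.2% to 25% in BM against 8.96% to 10% in WT, and Ctsb at 19.7% to 21.4% against 8.62% to 10.9%. Ctsh rose from 4.16% to 4.43% in WT to 6.38% to 7.43% in KO and 12.2% to 12.5% in BM. Ctsl remained a minor part, at 2.23% to 2.55% in KO, 1.28% to 1.42% in WT and 0.365% to 0.497% in BM.

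**Figure D3:**
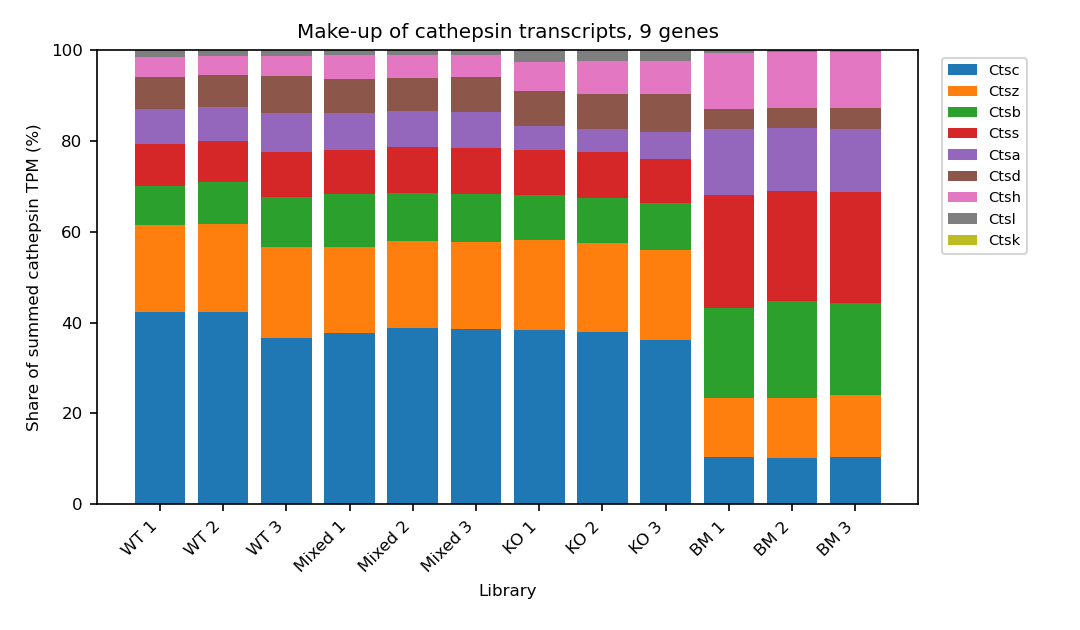
Share of each of 9 cathepsin genes in the summed cathepsin TPM of each library, as stacked bars that reach 100%. Ctsc fills 36.1% to 42.4% of each fetal liver bar and 10.1% to 10.3% of each BM bar.

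Lgmn and Tpp1 are the other proteases of the set, and they moved in opposite directions in KO. Lgmn, an asparaginyl endopeptidase that also processes cathepsin precursors, stood at 75.7, 82.4 and 99.8 CPM in WT, 95.2, 87.7 and 87.4 in Mixed, 138, 138 and 148 in KO, and 104, 107 and 98.7 in BM. Every KO library was above every other library, and the difference from WT was 0.72 ± 0.08. Tpp1, a tripeptidyl peptidase, stood at 136, 135 and 149 CPM in WT, 183, 163 and 156 in Mixed, 101, 115 and 118 in KO, and 167, 184 and 170 in BM. KO was the lowest group, at -0.33 ± 0.07 against WT, and this was not called with day as a term (-0.26, edgeR adjusted p = 0.0653).

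Glycosidases remove sugars from glycoproteins, glycolipids and glycogen. In KO against WT, 1 of 6 was higher and 3 were lower, in Mixed edgeR with all libraries called 0 (2 at an unadjusted p under 0.05, and 1 called by DESeq2), and in BM 3 were higher and 1 lower than in WT. The shares of all genes tested were 18.2% higher and 19.9% lower in KO, and 32.1% higher and 31.9% lower in BM. Over 19 alternatives for Mixed against WT, Man2b1 was called higher in 5, Glb1 in 3 and Hexa in 1. Hexa, the alpha subunit of beta-hexosaminidase, stood at 223, 217 and 289 CPM in WT, 282, 257 and 263 in Mixed, 150, 173 and 186 in KO, and 435, 484 and 475 in BM. The KO libraries were below and the BM libraries above all others, with -0.52 ± 0.10 for KO and 0.93 ± 0.10 for BM against WT. Gaa, which degrades glycogen, and Glb1, a beta-galactosidase, were the other genes lower in KO, by -0.43 ± 0.09 and -0.26 ± 0.09. In Mixed, Gaa was 57.8 to 61.5 CPM and Glb1 54 to 67.4 CPM, against 38.9 to 42.4 and 37.8 to 46.4 CPM in KO. With day as a term Hexa, Gaa and Glb1 were not called between KO and WT, at -0.38, -0.23 and -0.14 (edgeR adjusted p of 0.0935, 0.119 and 0.503). Man2b1, an alpha-mannosidase, was the gene that rose, at 353 to 390 CPM in KO and 270 to 347 in WT, and it was 595 to 669 CPM in BM. On the TPM scale Man2b1 was not called in KO and 4 glycosidases were lower. Gusb, a beta-glucuronidase, was 272 to 287 CPM in BM and 318 to 348 in WT, a lower level in BM by -0.26 ± 0.05. Gla, an alpha-galactosidase, was 18.4 to 26.2 CPM over the 12 libraries and was not called with all libraries in edgeR. It passed the threshold as higher in KO than in WT without WT 1 (0.35, edgeR adjusted p = 0.0355), and as higher in BM than in WT without BM 1 (0.28, adjusted p = 0.0326) and with limma on TPM (0.36, adjusted p = 0.0114).

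Lysozymes cleave the bacterial cell wall and are stored in the granules of myeloid cells. Lyz2 (chr10:117277331-117282321) was the set's most abundant gene by TPM in every group. It stood at 5715, 5715 and 6845 CPM in WT, 8010, 8193 and 8002 in Mixed, 4311, 4561 and 3948 in KO, and 21649, 22075 and 21951 in BM. The 4 groups did not overlap, KO being lowest and BM highest. The log2 fold changes were -0.51 ± 0.06 for KO, 0.41 ± 0.06 for Mixed and 1.85 ± 0.06 for BM against WT, and -0.92 ± 0.06 for KO against Mixed. The KO fall was -0.40 with day as a term (edgeR adjusted p = 0.00374). Lyz1, the lysozyme of intestinal Paneth cells, lies beside Lyz2 and is nearly identical to it, so reads can be divided between them and its values are uncertain. It stood at 1.49 to 2.42 CPM in the 9 fetal liver libraries and at 11.2, 14.2 and 15.9 in BM.

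Lipid enzymes and carriers degrade membrane lipids and move cholesterol out of the lysosome. In KO 5 of 7 were higher than in WT and the other two were not called, in Mixed 3 were higher, and in BM all 7 were higher than in WT and than in Mixed. Of all genes tested, 18.2% were higher in KO and 4.21% in Mixed than in WT. For BM the share was 32.1% higher than in WT and 29.5% higher than in Mixed. On the TPM scale, however, the KO count of the class was 2 higher and 1 lower. Psap (chr10:60277627-60302597), the precursor of the saposins that present sphingolipids to their hydrolases, stood at 2483, 2691 and 2787 CPM in WT, 2843, 3158 and 3289 in Mixed, 5576, 6036 and 5427 in KO, and 3996, 4390 and 4561 in BM. KO was the highest group and the 4 groups did not overlap. The difference was 1.10 ± 0.06 against WT (edgeR adjusted p = 1.77e-11) and 0.88 ± 0.06 against Mixed, and 1.21 with day as a term. Psap made up most of the class in every group. The summed class was 3653 to 4046 CPM in WT, 4177 to 4650 in Mixed, 6769 to 7437 in KO and 6309 to 6872 in BM. Ppt1, which removes palmitate from proteins, stood at 111, 122 and 125 CPM in WT, 133, 133 and 128 in Mixed, 195, 194 and 192 in KO, and 202, 216 and 209 in BM. It was higher in KO than in WT by 0.70 ± 0.06 and than in Mixed by 0.56 ± 0.05.

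Smpd1, the acid sphingomyelinase, and the cholesterol carriers Npc1 and Npc2 were higher in KO than in WT by 0.45 ± 0.10, 0.37 ± 0.07 and 0.19 ± 0.06. With edgeR these 3 were not called between KO and Mixed, at 0.07 ± 0.10, 0.15 ± 0.07 and -0.04 ± 0.06, while limma on TPM called Npc2 lower in KO (-0.22, adjusted p = 0.00418). In BM they were 36, 78 and 1219 CPM on average, against 14.3, 38.3 and 494 in WT. Lipa, the acid lipase, stood at 139 to 157 CPM in the KO, WT and Mixed libraries and at 258 to 274 in BM. Asah1, the acid ceramidase, was 391 to 403 CPM in WT, 408 to 436 in Mixed, 369 to 394 in KO and 526 to 558 in BM. With edgeR, Lipa and Asah1 were thus called only in comparisons with BM, apart from a small fall of Asah1 in KO against Mixed (-0.15 ± 0.05).

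**Figure D4:**
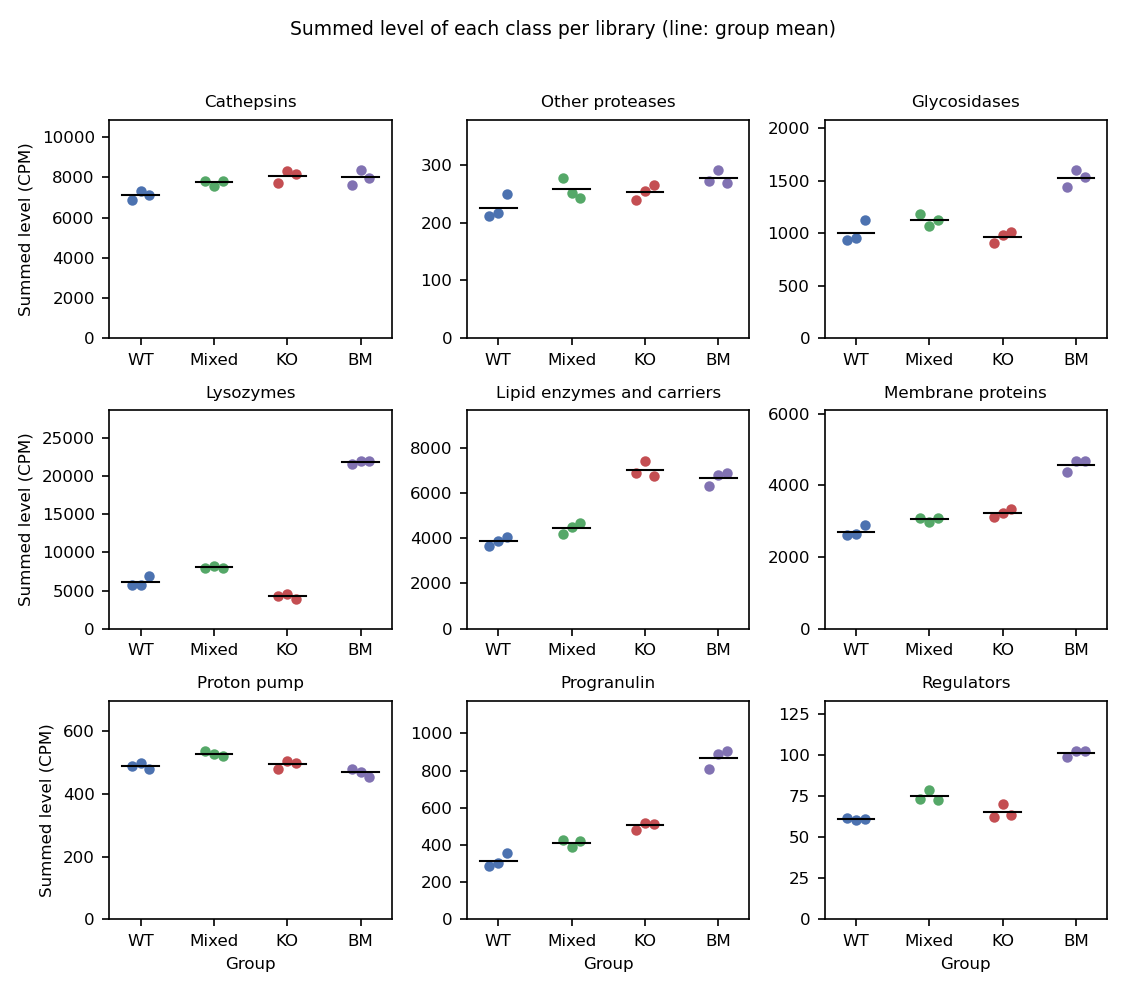
Summed level of each class in each library, in CPM from 0, with 1 point per library and a line at the group mean. The lipid class is higher in KO (6769 to 7437 CPM) and BM than in WT and Mixed, the lysozyme class is highest in BM and lowest in KO, and the cathepsin class spans 6897 to 8368 CPM over all libraries.

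Membrane proteins of the lysosome include Cd63, the gene of the set that varied most between groups. Of 7 tested, 1 was higher and 2 lower in KO than in WT, 2 were higher and 1 lower in Mixed, and 5 were higher and 1 lower in BM. The shares of all genes tested were 18.2% higher and 19.9% lower in KO. They were 4.21% and 3.87% in Mixed, and 32.1% and 31.9% in BM. Cd63 (chr10:128900989-128912822), a tetraspanin of late endosomes and lysosomes that is also found on exosomes and granules, stood at 70.1, 65.4 and 92.1 CPM in WT, 36.2, 36.4 and 36.6 in Mixed, 46.6, 36.6 and 41.5 in KO, and 3.3, 3.96 and 4.51 in BM. WT was the highest group and BM the lowest, and KO and Mixed overlapped. Against WT the change was -0.87 ± 0.11 in KO, -1.06 ± 0.11 in Mixed and -4.27 ± 0.15 in BM, while KO against Mixed was 0.19 ± 0.12 (edgeR adjusted p = 0.214). WT 2 and WT 3, from the same embryonic day as Mixed, were at 65.4 and 92.1 CPM and WT 1, from the day of KO, was at 70.1 CPM. Mcoln1, the mucolipin cation channel that releases calcium from lysosomes, stood at 13.8, 17.9 and 22.4 CPM in WT, 20, 23.4 and 17 in Mixed, 9.91, 8.83 and 11.5 in KO, and 31.7, 35 and 39.9 in BM. The KO libraries were lowest and the BM libraries highest, with -0.84 ± 0.16 for KO and 0.97 ± 0.15 for BM against WT. WT 1 was the lowest WT library, and with day as a term the KO difference was -0.44 and not called (edgeR adjusted p = 0.119).

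Laptm5, a membrane protein of blood cell lysosomes, rose in all groups against WT, by 0.40 ± 0.06 in KO, 0.24 ± 0.06 in Mixed and 0.72 ± 0.06 in BM. The Mixed call was lost in 6 of 19 alternatives. KO against Mixed was not called, and passed the threshold as higher in 10 of 19 alternatives. Laptm5 levels were 1707 to 2000 CPM in WT, 2049 to 2207 in Mixed, 2278 to 2517 in KO and 2773 to 3128 in BM. Cd68, a heavily glycosylated protein used as a marker of monocytes and macrophages, stood at 188, 190 and 214 CPM in WT, 239, 235 and 236 in Mixed, 199, 221 and 230 in KO, and 632, 662 and 658 in BM. It was higher in Mixed by 0.26 ± 0.06 and in BM by 1.72 ± 0.06, and was not called in KO (0.13 ± 0.06). Over 19 alternatives, Cd68 was called higher in KO than in WT in 4, and had the opposite sign, not called, in 1. KO was called lower than Mixed in 2 of 19, and the Mixed call against WT was lost in 3. Lamp1 and Lamp2, which coat the inner face of the membrane, were not called between fetal liver groups with edgeR, while limma on TPM called both lower in KO than in Mixed, each at -0.28 (adjusted p = 0.00872 for Lamp1 and 0.00123 for Lamp2), and Lamp1 lower in KO than in WT (-0.22, adjusted p = 0.033). Without Mixed 1, edgeR also called Lamp1 lower in KO than in Mixed (-0.20, adjusted p = 0.0469). Lamp2 was 668 to 724 CPM in BM and 391 to 468 in the fetal liver libraries, and Lamp1 was 108 to 120 CPM in BM and 88.3 to 109 in fetal liver. Scarb2, the receptor that brings glucocerebrosidase to the lysosome, was 59.7 to 73.9 CPM over all libraries and passed the threshold with edgeR in BM against Mixed (0.19 ± 0.08), a call that was lost in 12 of 18 alternatives (highest adjusted p 0.208).

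The proton pump subunits of the set were among the genes that varied least. Atp6v0d1, of the membrane sector, was 111 to 137 CPM over the 12 libraries and was higher in KO than in WT by 0.19 ± 0.06, a call that was lost in 6 of 19 alternatives. With day as a term the difference was 0.23 (edgeR adjusted p = 0.0834). Atp6v1a, the catalytic subunit, was 343 to 409 CPM, and was lower than in Mixed by -0.14 ± 0.05 in KO and by -0.19 ± 0.05 in BM. The KO call was lost in 8 of 19 alternatives (highest adjusted p 0.315). Grn encodes progranulin, a secreted and lysosomal protein that is cleaved into granulins. It stood at 287, 303 and 356 CPM in WT, 424, 389 and 420 in Mixed, 482, 519 and 512 in KO, and 809, 890 and 905 in BM. Its 4 groups did not overlap, and it was called in all 5 comparisons with edgeR: 0.68 ± 0.07, 0.38 ± 0.07 and 1.46 ± 0.07 for KO, Mixed and BM against WT, and 0.30 ± 0.07 and 1.08 ± 0.07 for KO and BM against Mixed. With limma on TPM, KO against Mixed was 0.15 and not called (adjusted p = 0.086). The regulators differed from each other. Tfeb stood at 22.9, 24.8 and 24.2 CPM in WT, 26, 32.2 and 26.5 in Mixed, 31.3, 32 and 29.3 in KO, and 40, 45 and 44.6 in BM, and was higher in KO than in WT by 0.36 ± 0.09. Tfe3 stood at 38.9, 35.3 and 36.5 CPM in WT, 47.1, 46.6 and 46 in Mixed, 30.9, 37.8 and 33.8 in KO, and 58.4, 57.3 and 57.5 in BM. It was not called in KO against WT (-0.11 ± 0.08), and was lower in KO than in Mixed by -0.45 ± 0.08. Both regulators were higher in BM, by 0.85 ± 0.09 and 0.65 ± 0.08 against WT. These are RNA levels, and the activity of either factor was not measured.

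KO against WT and BM against Mixed have no library in common, so that their calls can be set side by side. Of the 17 genes higher in KO, 13 (76.5%) were also higher in BM, which is 50% of the 26 genes higher in BM. Over all genes tested, 48.6% of those higher in KO were higher in BM, and 30% the other way round. Of the 20 tested genes of the set that were not higher in KO, 13 were also higher in BM, and over the whole set this was 26 of 37. Of the 8 genes lower in KO, 1 (12.5%), Cd63, was also lower in BM, where 7 genes were lower, and over all genes this share was 45.3%. Ctsa, Glb1, Hexa, Lyz2 and Mcoln1 were lower in KO and higher in BM, and Ctsd, Ctsl and Ctsz were higher in KO and lower in BM. Gaa and Tpp1 were lower in KO and not called in BM.

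**Figure D5:**
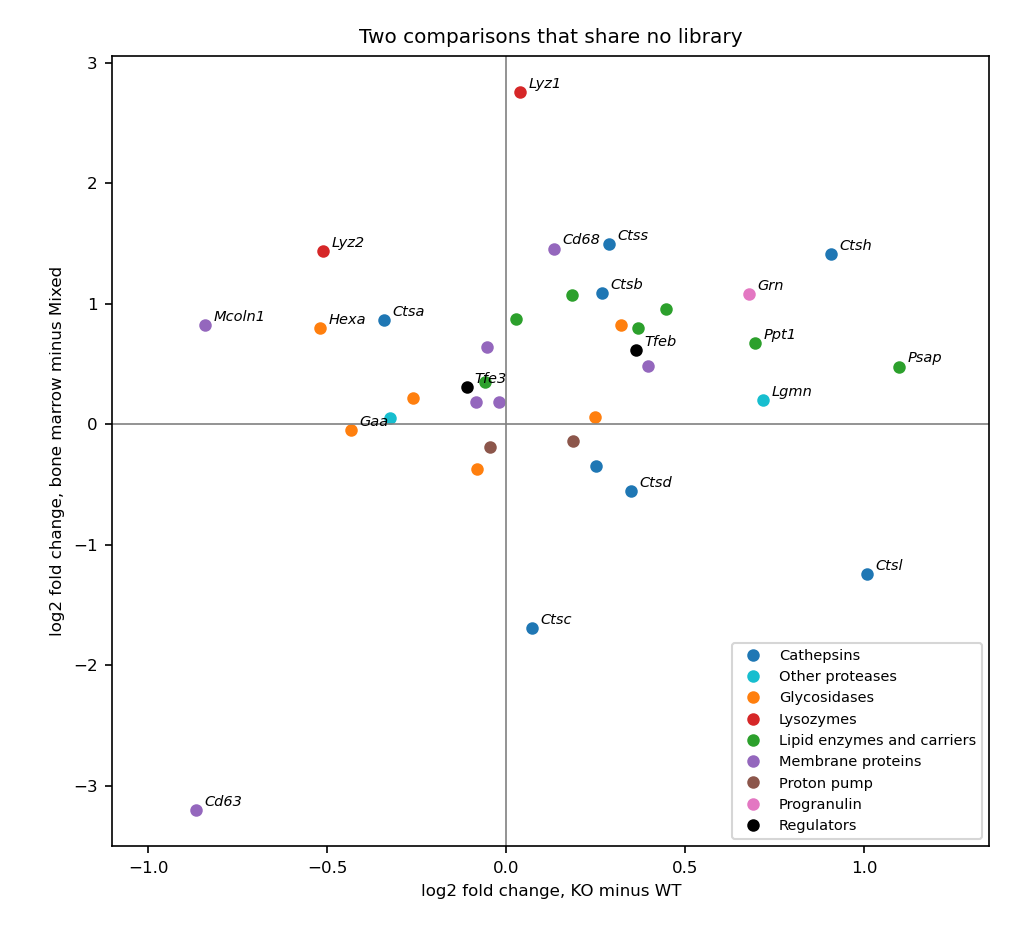
Log2 fold change in KO minus WT (horizontal) against BM minus Mixed (vertical) for the 37 tested genes, coloured by class. Ctsh, Grn, Ppt1 and Psap lie in the upper right, Ctsl in the lower right (1.01 and -1.25), Cd63 in the lower left (-0.87 and -3.21), and Mcoln1, Lyz2, Hexa and Ctsa in the upper left.

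Other genes of the lysosome, from lists outside the set, were counted in the same fit, to be read against 18.2% of all genes higher and 19.9% lower in KO than in WT, 4.21% higher in Mixed, and 32.1% higher and 31.9% lower in BM. Of 33 further hydrolases tested, 9 were higher and 13 lower in KO than in WT, 4 were higher in Mixed, and 21 were higher and 4 lower in BM. Of 22 further membrane proteins and transporters, 6 were higher and 9 lower in KO, 1 was higher in Mixed, and 16 were higher and 3 lower in BM. The KO medians were -0.08 and -0.02. Among the hydrolases, Acp5, an acid phosphatase, was higher in KO by 1.03 ± 0.12, and Gm2a, the activator that hands GM2 ganglioside to hexosaminidase, by 0.94 ± 0.05. Pld3, an exonuclease of single-stranded nucleic acids, was lower by -1.81 ± 0.16, at 6.39 ± 0.80 CPM (SD, n = 3) against 22.5 ± 6.2 in WT. Scpep1, a serine carboxypeptidase, and Gm2a rose in BM by 2.08 ± 0.06 and 1.85 ± 0.05. Among the membrane proteins, Hgsnat, an acetyltransferase of heparan sulfate breakdown, was lower in KO (-0.90 ± 0.15) and higher in BM (1.32 ± 0.14), and the sialomucin Cd164 was lower in BM (-1.39 ± 0.06).

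Of 16 further proton pump subunits and accessory proteins tested, 5 were higher and 5 lower in KO than in WT, and 8 were higher and 3 lower in BM. Atp6v0a2, an isoform of the membrane sector, was higher in KO by 1.11 ± 0.06, at 124.5 ± 0.99 CPM against 57.9 ± 3.8 (SD, n = 3) in WT. Of 18 genes for sorting of enzymes to the lysosome, 3 were higher and 5 lower in KO, and 12 were higher and 2 lower in BM. Gnptab, whose product starts the mannose phosphate tag, was higher in KO (0.47 ± 0.12) and in BM (0.96 ± 0.12), and Nagpa, which uncovers that tag, was lower in KO (-0.64 ± 0.08). Of 15 genes of the Tfeb family and its control by mTORC1, 1 was higher and 5 were lower in KO, and 4 were higher and 4 lower in BM, where the share over all genes was 32.1% higher and 31.9% lower. Tfec, a family member restricted to myeloid cells and a few other tissues, was 100 ± 2.2 CPM in WT, 97.9 ± 3.7 in Mixed, 40.1 ± 4.7 in KO and 48.3 ± 1.3 in BM (SD, n = 3), a fall of -1.32 ± 0.07 in KO and -1.05 ± 0.07 in BM. Flcn, which forms a complex with Fnip1 or Fnip2 that lets mTORC1 retain the factors in the cytoplasm, was lower in KO (-0.63 ± 0.10) and higher in BM (0.80 ± 0.09), and Fnip2 was higher in KO (0.99 ± 0.11).

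Of 7 protease inhibitors, cystatins and serpins, 4 were higher and 3 lower in KO than in WT. In BM 3 were higher and 3 lower. The shares of all genes tested were 18.2% higher and 19.9% lower in KO, and 32.1% higher and 31.9% lower in BM. Cst3, the secreted cystatin C, which dendritic cells express strongly, was 942 ± 77 CPM in WT, 990 ± 27 in Mixed, 2225 ± 152 in KO and 1400 ± 26 in BM (SD, n = 3), a rise of 1.24 ± 0.06 in KO. Cst7, cystatin F, which acts within lysosomes on the enzyme that Ctsc encodes among others, was 19.1 ± 1.3 CPM in WT, 19.2 ± 3.5 in Mixed, 4.19 ± 0.49 in KO and 12.2 ± 0.6 in BM, a fall of -2.19 ± 0.14 in KO. Cstb, the cytosolic cystatin B, was lower in KO by -0.47 ± 0.07.

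Exons of 11 genes of the set overlap another gene in the GENCODE annotation of GRCm38, and no source used here says that counting used strand, so reads of such pairs may not have been separated. The partners with the highest levels were Cap1 beside Ppt1 (309 to 391 CPM), Nelfcd beside Ctsz (106 to 154), Rmc1 beside Npc1 (55.7 to 81), Fdft1 beside Ctsb (32.5 to 63.2) and Tmppe on the same strand as Glb1 (12.8 to 27.4). For Ctsl, the antisense gene Gm47123 was at 0 to 1.27 CPM and the pseudogene Gm49230 at 0.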

How the data were processed

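Bulk RNA of 12 sorted Ly6C+ monocyte libraries was analysed, 3 in each of the groups WT, Mixed, KO and BM, assigned from the sample titles. Per the labels' protocols, RNA from sorted monocytes was taken with a NucleoSpin RNA XS kit, amplified with a SMARTer Ultra Low kit and sequenced on a NovaSeq X Plus. The submitters' processing notes name DRAGEN, STAR, Subread, featureCounts, Salmon and mm10, with no roles stated. The authors deposited estimated counts per gene, of which 28.5% of nonzero values were not whole (tolerance 1e-06), and TPM, which divides by transcript length and rescales each library. Counts were rounded, and 287 repeated gene entries were removed. Total counts per library were 17384956 to 24473502.

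Genes were filtered with filterByExpr (minimum count 10, minimum total 15), which left 14618 of 55487, and scaled by TMM. edgeR 4.0.16 in R 4.3.3 fitted all 12 libraries together with a mean per group (glmQLFit with robust dispersion, glmQLFTest, two-sided, Benjamini-Hochberg over all genes tested). The procedure was also run on counts simulated for KO against WT with 1 common spread for all genes. Of the tested genes among 100 changed by 0.5 log2, 52.1% were recovered, and among 100 changed by 1 log2, 89.9%. There were 6 false calls over 13688 genes. The real data differ, as spread varies by gene and 5565 genes were called in KO against WT. Alternatives used DESeq2 1.42.0 and limma 3.58.1 on log2 of the deposited TPM plus 1. Whether libraries of 1 group are different animals is not stated, so a p-value here reflects only how much these libraries varied, which may be technical. The 38 genes and all other lists were chosen with earlier results of these data known. All members are described, and from each other list at most 4 called genes per comparison with the largest log2 fold change were eligible to be named, among those averaging 3 log2 CPM or more. Positions are from GENCODE on GRCm38 (mm10), and promoter sequences are from RefSeq on GRCm38.p6. Replicate numbers recur between groups, and nothing in the labels ties libraries of the same number.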

Additional observations from a re-analysis of the deposited data

How the results depend on the processing

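The counts of lysosome genes were recomputed with DESeq2 size factors, without the low-count filter, with DESeq2's Wald test, with limma on log2 TPM plus 1, with only the 2 groups compared, with a replicate block, with embryonic day as a term over the 9 fetal liver libraries, and without each library in turn. With limma on TPM, 10 genes were higher in KO than in WT (17 with edgeR) and 17 were lower in KO than in Mixed (11 with edgeR). On that scale the median over all genes was -0.12 in KO against WT and -0.15 in KO against Mixed. Of all called genes, 29.2% were then higher in KO against WT (47.7% with edgeR), 24.4% in KO against Mixed (49.5%) and 68.2% in Mixed against WT (52.1%). With day as a term, 2 genes were lower in KO than in WT (8 without it), 4 were higher in Mixed than in WT (13) and 4 were lower in KO than in Mixed (11). Ctss and Lipa, not called in KO against Mixed with edgeR, turned to lower with limma on TPM (-0.11, adjusted p = 0.0471, and -0.17, adjusted p = 0.0386). The cause of these changes was not tested. Beside them stand the shift of all genes on the TPM scale and the smaller number of libraries that set the day term.

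Leaving out each library in turn gave 14 to 18 higher and 7 to 8 lower in KO against WT, 3 to 17 higher and 1 to 1 lower in Mixed against WT, 25 to 27 and 6 to 6 in BM against WT, 6 to 7 and 9 to 11 in KO against Mixed, and 22 to 26 and 7 to 8 in BM against Mixed. Calls held in every alternative for 12 of 25 genes in KO against WT, 4 of 14 in Mixed against WT (Ctsh, Lyz2, Grn and Cd63), 30 of 32 in BM against WT, 9 of 17 in KO against Mixed and 29 of 33 in BM against Mixed. The 12 in KO against WT were Ctsd, Ctsh, Ctsl, Ctss, Lgmn, Psap, Ppt1, Laptm5, Grn and Tfeb, all higher, and Lyz2 and Cd63, both lower. Over all genes, calls with day as a term numbered 3715 in KO against WT (5565 without it), 399 in Mixed against WT (1180) and 1978 in KO against Mixed (5365).

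With the replicate number as a block, 17 were higher and 8 lower in KO against WT, 15 and 1 in Mixed against WT, 26 and 6 in BM against WT, 8 and 11 in KO against Mixed, and 24 and 8 in BM against Mixed. Libraries with the same number share only a number: the correlation of their deviations from the group means ran from -0.035 to 0.069, and 4 of 12 libraries correlated best with their own number. Depth limited Lyz1, whose fetal liver levels were 1.49 to 2.42 CPM, and Ctsk, which could not be tested.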
